A study of Homo sapiens with 18 samples.

Results

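The genes of the lysosome and of autophagy were followed in human D425 and D458 medulloblastoma cells after knockdown of EYA2. The set holds 49 genes chosen by name for their function, with earlier results of these data known. They are the MiT/TFE transcription factors, lysosomal hydrolases and their cofactors, lysosomal membrane proteins and the proton pump. The others are autophagy receptors, ATG8 proteins, and genes that start and extend the autophagic membrane. All 49 were found among the 25369 genes of the deposited count table, CTSL2 under its current symbol CTSV, and 46 were among the 14850 genes with enough counts to be tested. CTSS, CTSZ and MAP1LC3A fell below the count filter, each under 1 CPM (counts scaled to a common library total) in every library. They had 76, 83 and 78 counts over all libraries. D425 and D458 are established lines of Group 3 medulloblastoma, a cerebellar tumour of childhood. EYA2 is a phosphatase that also acts in transcription, as a partner of homeobox proteins. In each line, cells with a non-targeting control hairpin (a short hairpin RNA, shRNA) were set against cells with an EYA2 hairpin, which was number 6 or 8 in D425 and number 7 or 8 in D458. There were 3 biological replicates in each of the 6 groups and 18 libraries of polyadenylated RNA in all. Control and knockdown cells alike carried a hairpin construct marked by zsGreen, were selected in puromycin, sorted for the brightest zsGreen cells and left to recover before lysis, so every group had passed through transduction, drug selection and sorting.

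Lysosomes are acidic organelles in which hydrolases break down proteins, lipids and glycans, and their acidity is made by a proton pump, the V-ATPase. Autophagy brings the cell's own material to them: the ULK1 kinase starts the process, a membrane grows around the cargo, ATG8 proteins attached to that membrane bind cargo receptors, and the closed vesicle fuses with a lysosome. TFEB, TFE3 and MITF are basic helix-loop-helix factors that bind a palindromic element (the CLEAR element, built on the E-box CACGTG) in promoters of many of these genes, and mTORC1 on the lysosomal surface keeps TFEB and TFE3 out of the nucleus when nutrients are plentiful. Inherited loss of many of the genes, among them GAA, GLA, HEXA, NEU1, NPC1, NPC2, PPT1 and TPP1, causes lysosomal storage disease, often with loss of neurons.

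Promoter windows of RefSeq (GRCh38.p14, 250 bases before to 50 bases after the start) were given for 40 of the 49 genes and were searched on both strands for the CLEAR core GTCACGTGA, for the shorter TCACGTGA and CACGTG, which lie within it, and for TCATGTGA, a sequence favoured by MITF. The first 4 windows below belong to genes called with both hairpins of a line, longest match first. GAA and LAMP1 were added after their values had been seen. They hold a CLEAR core, and their RNA was not called in the fit without a replicate block. Each shows the 250 bases before the start, 5′ to 3′ along the gene's strand, and capitals mark the matches on either strand that lie wholly within them. LAMP1 holds a further CLEAR core that begins just before the start, runs past it and is left unmarked.
MCOLN1 (chr19:7522374-7522623, plus strand): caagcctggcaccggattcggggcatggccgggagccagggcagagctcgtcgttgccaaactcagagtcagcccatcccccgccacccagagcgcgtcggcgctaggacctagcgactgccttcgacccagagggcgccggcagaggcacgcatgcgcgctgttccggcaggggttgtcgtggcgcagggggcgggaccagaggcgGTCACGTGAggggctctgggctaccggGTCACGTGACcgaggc
GRN (chr17:44345052-44345301, plus strand): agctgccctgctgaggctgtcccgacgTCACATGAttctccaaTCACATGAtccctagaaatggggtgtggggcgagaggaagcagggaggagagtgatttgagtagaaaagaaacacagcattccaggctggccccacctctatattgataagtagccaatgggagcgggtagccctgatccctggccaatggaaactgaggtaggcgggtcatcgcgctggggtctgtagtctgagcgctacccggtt
CTSD (chr11:1763928-1764177, minus strand): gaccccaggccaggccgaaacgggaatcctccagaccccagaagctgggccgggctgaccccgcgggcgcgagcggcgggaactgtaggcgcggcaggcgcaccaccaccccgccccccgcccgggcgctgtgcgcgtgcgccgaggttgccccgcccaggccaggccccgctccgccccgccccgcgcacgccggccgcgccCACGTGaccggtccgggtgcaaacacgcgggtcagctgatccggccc
NEU1 (chr6:31862822-31863071, minus strand): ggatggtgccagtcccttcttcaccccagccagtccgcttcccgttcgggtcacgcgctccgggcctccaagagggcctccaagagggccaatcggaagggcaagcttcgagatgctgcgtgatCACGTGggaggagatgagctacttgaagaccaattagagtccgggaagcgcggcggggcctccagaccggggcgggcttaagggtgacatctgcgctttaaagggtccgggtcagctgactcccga
GAA (chr17:80101331-80101580, plus strand): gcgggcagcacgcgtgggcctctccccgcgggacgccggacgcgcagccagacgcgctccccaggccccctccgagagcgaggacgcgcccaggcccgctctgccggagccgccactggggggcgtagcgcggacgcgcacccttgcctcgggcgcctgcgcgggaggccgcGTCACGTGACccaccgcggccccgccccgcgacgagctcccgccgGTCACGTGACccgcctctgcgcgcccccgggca
LAMP1 (chr13:113296989-113297238, plus strand): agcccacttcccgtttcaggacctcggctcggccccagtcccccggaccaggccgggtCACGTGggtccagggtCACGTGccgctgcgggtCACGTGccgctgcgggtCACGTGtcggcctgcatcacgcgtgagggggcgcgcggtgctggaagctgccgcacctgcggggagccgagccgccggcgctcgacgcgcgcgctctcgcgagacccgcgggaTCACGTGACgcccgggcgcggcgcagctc

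MCOLN1 carried its first CLEAR core 43 bases before the start and another closer to it, GAA from 78 bases before the start and LAMP1 from 29 bases before it. GRN held a pair of TCATGTGA matches, the farther one 223 bases before the start, and CTSD and NEU1 a single CACGTG, 47 and 126 bases before theirs. The CLEAR core was present in 5 of the 40 windows (12.5%: CTSA, GAA, LAMP1, MCOLN1 and ATP6V0D1), beside 1.66% of the 10629 windows of tested genes. CACGTG was present in 9 of 40 (22.5%, beside 10.2%), and TCATGTGA in 4 of 40 (10%, beside 0.875%). Of the genes with a CLEAR core, MCOLN1 was called with every hairpin in the fit without a replicate block, and CTSA, GAA, LAMP1 and ATP6V0D1 with none. With the block, GAA was called higher with both D458 hairpins and LAMP1 with both D425 hairpins. ATP6V0D1 was then called higher with hairpin 8 of either line. The counts that follow use calls without the block. Among the members higher with both D458 hairpins, 1 of 15 windows held the CLEAR core (6.67%) and 3 held CACGTG (20%). Among those higher with both D425 hairpins, 1 of 5 held the CLEAR core (20%) and 2 held CACGTG (40%). Among tested members not called with both hairpins of either line, 4 of 21 held the CLEAR core (19%) and 6 held CACGTG (28.6%), and no order is read from such small counts. These matches describe the letters of 1 window per gene and say nothing of whether a factor was bound.

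Libraries held 21260369 to 31552051 counts. EYA2, read as a check of the labels, fell in D425 from 27.9 ± 14.3 CPM (mean ± SD, n = 3) to 11.9 ± 2.87 under hairpin 6 and 14.1 ± 3.01 under hairpin 8 (adjusted p = 0.00693 and 0.017). In D458 it fell from 70.3 ± 3.16 to 20.3 ± 2.77 under hairpin 8 (adjusted p = 5.1e-04). With D458 hairpin 7 it stood at 48.1 ± 3.43 CPM, 68.5% of control, which did not pass (adjusted p = 0.137) although all 3 libraries lay below every control. The D425 hairpin 8 libraries, at 12.04 to 17.5 CPM, overlapped the controls at 15.5 to 43.6. The Group 3 markers MYC, OTX2, IMPG2, NRL, CRX, GABRA5 and HLX were present in both lines, and NPR3 was near 0. Of these, MYC was called lower with both D425 hairpins (3581 CPM in controls, 2663 and 2447 under hairpins 6 and 8), GABRA5 lower and IMPG2 higher with D425 hairpin 8, and CRX higher with both D458 hairpins. Markers of macrophages and microglia, cells rich in lysosomes, were near 0 apart from CSF1R. Of these, 10 of 11 stayed under 1 CPM in every library, and P2RY12 had no count. The list summed to between 1.72 and 8.47 CPM. Group means of CSF1R were 1.33 to 1.92 CPM in D425 and 6.03 to 6.32 in D458, with no call. PTPRC was called higher with D458 hairpin 7, from 0.0139 to 0.188 CPM. Astrocyte markers summed to 43.96 to 53.1 CPM in D425 controls and 111 to 137 in D458 controls, mostly SLC1A3. In D425 they summed to 28.9 to 38.2 CPM under hairpin 6 and 18.04 to 32.3 under hairpin 8, where SLC1A3 was called lower. GJA1 among them was called higher with D425 hairpin 6, from 0.12 to 0.75 CPM. The astrocyte sums in D458 were 111 to 121 CPM under hairpin 7 and 109.99 to 112 under hairpin 8. Sums of oligodendrocyte markers reached at most 2.45 CPM, and MOBP among them was called lower with D425 hairpin 8 and higher with D458 hairpin 8. Endothelial markers summed to 1.56 to 2.91 CPM in D425 controls and to 3.57 to 5.26 and 4.28 to 6.72 under hairpins 6 and 8, with KDR called higher by both, and stayed at or below 2.8 CPM in D458. Summed fibroblast and pericyte markers moved with the hairpins, from 16.1 to 30.2 CPM in D425 controls to 35.2 to 71.8 and 43.5 to 73.0 with hairpins 6 and 8, and from 6.89 to 8.44 in D458 controls to 34.3 to 55.4 and 32.1 to 60.9 with hairpins 7 and 8. Of these, COL1A1 and LUM were called higher with every hairpin, DCN and PDGFRB in D458 alone, and COL1A2 was under the filter. The part of these marker changes in the results below was not tested, and in such bulk RNA fewer cells of a type and less RNA per cell cannot be told apart.

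More of the lysosome and autophagy genes were higher than lower after knockdown, most of all in D458. The members were chosen with earlier results of these data known, so their shares are no independent test. A gene was called at an adjusted p under 0.05 by edgeR's quasi-likelihood test, with Benjamini-Hochberg adjustment over the 14850 genes. This fit had no term for the replicate number, and counts with it as a block are given below. In D425, 6 of the 46 tested members were higher and 1 lower with hairpin 6, and 9 were higher and 2 lower with hairpin 8. Over all genes 7.31% were higher and 6.84% lower with hairpin 6, and 11.6% and 10.1% with hairpin 8. The members' 13% and 19.6% higher lay above this background, and their 2.17% and 4.35% lower lay below it. These D425 gaps rest on few genes and were not tested. Without replicate 2 or 3 of every group, 0 and 1 members were higher with hairpin 6, beside 0.418% and 0.521% of all genes. In D458, 18 members were higher and 2 lower with hairpin 7, and 19 were higher and 3 lower with hairpin 8, which are 39.1% and 41.3% higher and 4.35% and 6.52% lower. The background there was 11.5% higher and 11.1% lower with hairpin 7, and 12.1% and 11.1% with hairpin 8. The median log2 change of the members was 0.12 and 0.14 in D425 and 0.28 and 0.30 in D458, beside 0.01 or 0.02 over all genes in each comparison.

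**Figure D1:**
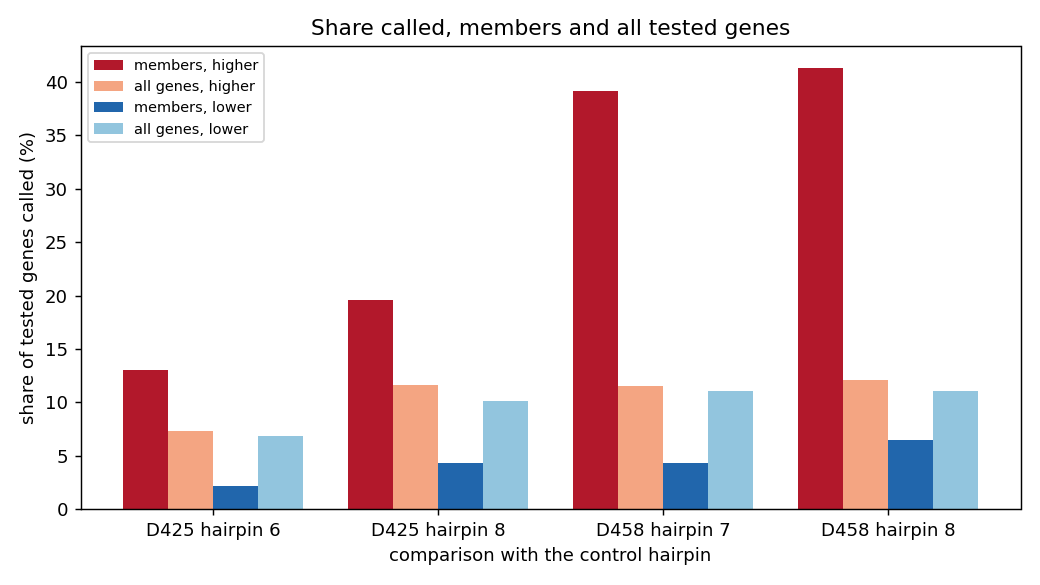
Share of tested genes called (y axis, percent) in each comparison with the control hairpin (x axis), for the 46 tested members (dark bars) and all 14850 tested genes (light bars), higher in red and lower in blue. The members' share higher was 39.1% and 41.3% in D458, where the background was 11.5% and 12.1%.

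Called with both hairpins of D425 were 6 members higher (CTSD, LIPA, SCARB2, MCOLN1, GABARAPL1 and UVRAG) and 1 lower (CTSV), where 6.48% and 5.94% of all genes were. Called with both hairpins of D458 were 18 members higher and 2 lower (GLA and ATG5), where 9.28% and 8.64% of all genes were. CTSD, SCARB2, MCOLN1 and GABARAPL1 were higher in all 4 comparisons, as were 1.16% of all genes, and no member was lower in all 4, as were 0.795% of all genes. CTSB and CTSV were called in opposite directions in the 2 lines, and 22 tested members were called with no hairpin. The matching shares of all genes were not computed, so these counts are not read as a trait of the members. The hairpins of a line share their control libraries, so a call with both rests on 1 set of 3 controls.

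The size of these counts depended on single libraries, in D458 above all. Of the members called higher there, replicate 1 of the hairpin group had the highest level in 15 of 18 with hairpin 7 and in 16 of 19 with hairpin 8. This was not counted over all genes, so it is not read as particular to the members. Without hairpin 7 replicate 1 the count for that hairpin fell from 20 to 9 (8 higher, 1 lower), where 4.99% of all genes were then higher and 3.49% lower. Without hairpin 8 replicate 1 it fell from 22 to 9 (8 higher, 1 lower), where 5.73% and 3.92% of all genes were called. Without D458 control replicate 3 it was 12 for either hairpin (11 higher, 1 lower), beside 7.08% and 5.55% of all genes with hairpin 7 and 7.3% and 5.73% with hairpin 8. The share of all genes called thus fell with the members' count. The sample descriptions of 1 replicate number begin with a common prefix, whose meaning is not stated, and replicates 2 and 3 carry a common date that replicate 1 does not. With replicates 2 and 3 alone, the counts were 13 and 15 in D425 (11 and 12 higher) and 17 and 15 in D458 (16 and 14 higher). Of all genes 12.5% were then higher and 10.8% lower with D425 hairpin 6, 15.3% and 12.8% with D425 hairpin 8, 10.7% and 7.94% with D458 hairpin 7, and 8.99% and 6.14% with D458 hairpin 8. Replicate 1 gives 1 library per group and no test. With the replicate number as a block within each line, 11 members were higher and 2 lower with D425 hairpin 6 and 16 and 4 with hairpin 8, where 14.5% and 13.3%, and 19.5% and 17.7%, of all genes were. In D458 the blocked counts were 25 higher and 4 lower with hairpin 7 and 25 and 3 with hairpin 8, beside 20% higher and 20% lower, and 19.9% and 19.7%, of all genes.

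**Figure D2:**
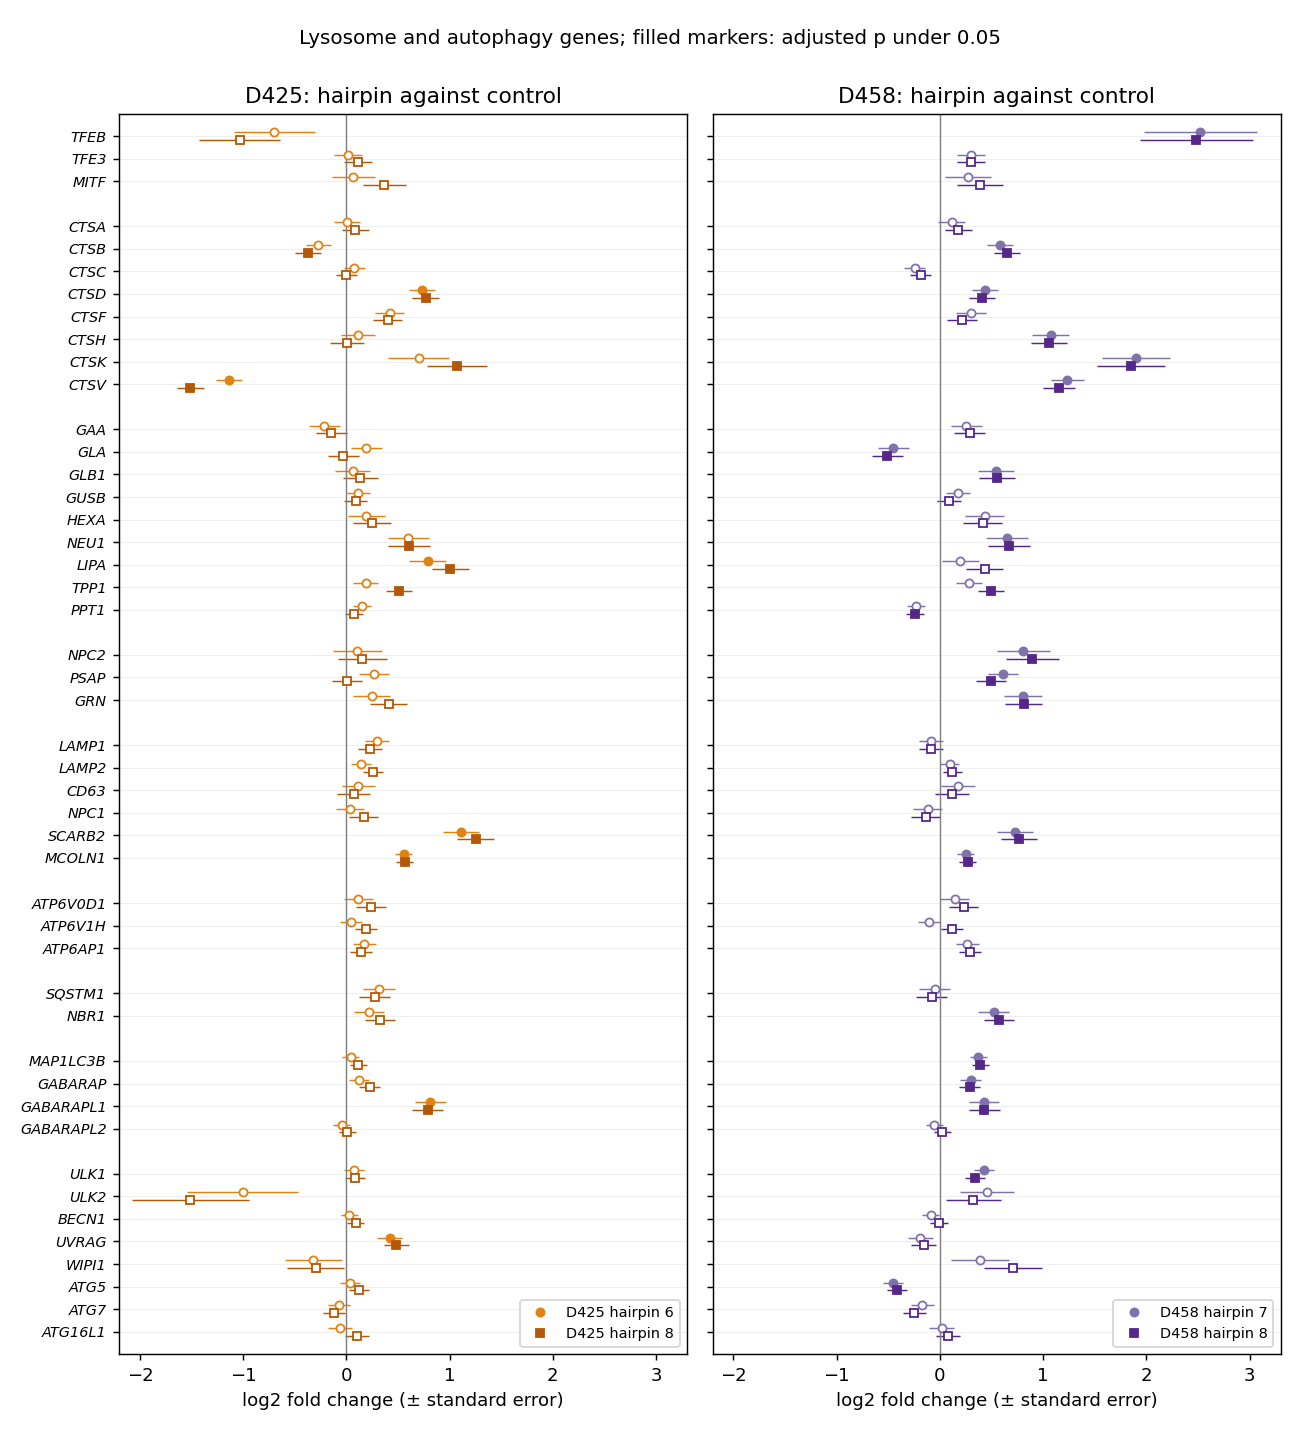
Log2 fold change against the line's control (x axis, ± standard error) for each of the 46 tested members (y axis, ordered by role), D425 on the left and D458 on the right. Filled markers have an adjusted p under 0.05, and the 18 members higher with both D458 hairpins fill the right side of the D458 panel, with TFEB, CTSK, CTSV and CTSH farthest out.

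TFEB, a factor that binds the CLEAR element, was higher after knockdown in D458 from a very low level. It had 1, 2 and 9 counts in the D458 controls, 35, 22 and 14 under hairpin 7 and 25, 26 and 23 under hairpin 8. Scaled for depth these are 0.0444, 0.0977 and 0.375 CPM in the D458 controls, 1.44, 1.05 and 0.627 under hairpin 7 and 0.94, 1.13 and 0.977 under hairpin 8. Every hairpin library lay above every control library, although control replicate 3 was well above the other controls. The summed counts gave 5.87 times the control level with hairpin 7 (95% exact counting interval 3.16 to 11.9) and 5.64 times with hairpin 8 (3.05 to 11.4), where the intervals cover counting error only. The fitted log2 changes were 2.52 ± 0.55 (adjusted p = 0.00495) with hairpin 7 and 2.48 ± 0.55 (adjusted p = 0.00524) with hairpin 8, and without a single library they ranged from 2.09 to 3.83 and from 2.05 to 3.79, the highest without control replicate 3. In D425, TFEB was more abundant and stood at 2.34, 3.17 and 4.73 CPM in the controls, 2.18, 2.45 and 1.703 under hairpin 6 and 2.33, 1.098 and 1.57 under hairpin 8. There the hairpin means were below the control mean, and the changes of -0.70 ± 0.39 (adjusted p = 0.268) with hairpin 6 and -1.03 ± 0.40 (adjusted p = 0.072) with hairpin 8 did not pass. With the replicate block the D425 hairpin 8 change did (adjusted p = 0.0416). At its highest in D458 the TFEB level stayed under that of any D425 control library.

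TFE3, the close relative of TFEB, stood at 40.4, 39.4 and 42.1 CPM in the D458 controls, 53.4, 46.8 and 49.8 under hairpin 7 and 56.7, 44.8 and 48.6 under hairpin 8. The hairpin libraries lay above the controls, but the log2 changes of 0.30 and 0.30 did not pass (adjusted p = 0.12 and 0.119). With the replicate block they did (adjusted p = 0.0316 and 0.0321). In D425 it was 57.2 ± 8.36 CPM in the controls, 57.9 ± 8.17 under hairpin 6 and 61.9 ± 10.4 under hairpin 8 (mean ± SD, n = 3), with no call. MITF, the factor of the family best known from pigment cells, was low in both lines. It stood at 1.51, 1.95 and 1.96 CPM in the D458 controls, 2.47, 2.16 and 1.93 under hairpin 7 and 3.12, 2 and 1.95 under hairpin 8, and at 2.85, 3.17 and 3.37 CPM in the D425 controls, 3.601, 2.83 and 3.41 under hairpin 6 and 4.36, 4.24 and 3.51 under hairpin 8, and none of its changes (0.07, 0.37, 0.27 and 0.39) passed.

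The cathepsins, the proteases of the lysosome, included called changes in both directions. In D458, 5 of the 8 tested were higher with both hairpins (CTSB, CTSD, CTSH, CTSK and CTSV) and none was lower. In D425, CTSD was higher and CTSV lower with both hairpins, while CTSK was higher and CTSB lower with hairpin 8 alone. CTSV, a cysteine protease with a narrow tissue range, was the only cathepsin lower with both D425 hairpins. It stood at 343, 389 and 314 CPM in the D425 controls, 155, 152 and 169 under hairpin 6 and 110.4, 138 and 118 under hairpin 8. The fall left every hairpin library below the lowest control, with log2 changes of -1.14 ± 0.13 (adjusted p = 6.6e-05) with hairpin 6 and -1.51 ± 0.13 (adjusted p = 6.9e-06) with hairpin 8. The 50 tested genes nearest to CTSV on chromosome 9 had a median change of -0.41 and -0.47 in the same comparisons. The neighbours of the 6 members higher with both D425 hairpins had medians between 0.07 and 0.21. In D458, where its level was far lower, it stood at 3.997, 5.28 and 4.76 CPM in the controls, 12.9, 9.83 and 10.2 under hairpin 7 and 12.6, 9.74 and 8.79 under hairpin 8. All 6 hairpin libraries were above the 3 controls, with changes of 1.23 ± 0.16 (adjusted p = 1.3e-04) with hairpin 7 and 1.16 ± 0.16 (adjusted p = 2.2e-04) with hairpin 8.

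CTSB, an abundant cysteine protease, stood at 58.01, 58.01 and 60.5 CPM in the D458 controls, 81.4, 89.3 and 93.8 under hairpin 7 and 91.2, 90.5 and 95.3 under hairpin 8. The groups did not overlap, and the changes were 0.58 ± 0.13 (adjusted p = 0.00507) with hairpin 7 and 0.65 ± 0.13 (adjusted p = 0.00264) with hairpin 8. In D425 it was 237, 257 and 207 CPM in the controls, 156, 204 and 222 under hairpin 6 and 147, 193 and 202 under hairpin 8, and replicate 1 was the lowest library of each hairpin group. The hairpin 8 change of -0.37 ± 0.12 (adjusted p = 0.0434) was called lower and the hairpin 6 change of -0.27 ± 0.12 (adjusted p = 0.168) was not, though it passed with the replicate block (adjusted p = 0.0389). CTSH, an aminopeptidase, differed between the lines. It stood at 7.64, 7.33 and 6.59 CPM in the D458 controls, 19.1, 12.5 and 13.8 under hairpin 7 and 19.03, 12.6 and 13.3 under hairpin 8. Replicate 1 was the highest in both hairpin groups, and even the lowest hairpin library exceeded all controls, with changes of 1.08 ± 0.18 (adjusted p = 9.1e-04) with hairpin 7 and 1.06 ± 0.18 (adjusted p = 9.7e-04) with hairpin 8. In D425 the CTSH level was 22.3 ± 3.24 CPM in the controls, 24.1 ± 1.32 under hairpin 6 and 22.4 ± 2.16 under hairpin 8 (mean ± SD, n = 3), and its changes of 0.11 and 0.01 did not pass.

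CTSD, the main aspartic protease of the lysosome, was higher with all hairpins. It stood at 199, 171 and 155 CPM in the D425 controls, 289, 285 and 298 under hairpin 6 and 278, 272 and 343 under hairpin 8. Every hairpin library exceeded every control, and the changes were 0.73 ± 0.13 (adjusted p = 0.00135) with hairpin 6 and 0.77 ± 0.13 (adjusted p = 6.0e-04) with hairpin 8. In D458 it was 127, 121 and 123 CPM in the controls, 194, 150.4 and 157 under hairpin 7 and 195, 139.9 and 155 under hairpin 8, again without overlap but with replicate 1 well above the other hairpin libraries, and the changes were 0.44 ± 0.13 (adjusted p = 0.0224) with hairpin 7 and 0.41 ± 0.13 (adjusted p = 0.0306) with hairpin 8. CTSK, the collagen-degrading protease of osteoclasts, was called higher from levels near the filter. It stood at 0.222, 0.244 and 0.292 CPM in the D458 controls, 0.987, 0.863 and 1.03 under hairpin 7 and 1.02, 0.9999 and 0.765 under hairpin 8, about 3.74 and 3.61 times control by the fit. No library of either group overlapped the controls, and the log2 changes were 1.9 ± 0.33 (adjusted p = 0.00126) with hairpin 7 and 1.85 ± 0.33 (adjusted p = 0.00144) with hairpin 8. In D425 it was 0.658, 0.559 and 0.318 CPM in the controls, 0.9101, 0.777 and 0.802 under hairpin 6 and 1.03, 1.17 and 1.02 under hairpin 8, with changes of 0.70 ± 0.29 (adjusted p = 0.129) with hairpin 6 and 1.07 ± 0.29 (adjusted p = 0.015) with hairpin 8.

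CTSA, CTSC and CTSF were called with no hairpin. CTSF, a cysteine protease, was above every control in each D425 hairpin library, with changes of 0.42 and 0.40 (adjusted p = 0.0584 and 0.0545), and passed with the replicate block there (adjusted p = 0.00182 and 0.00191) and with D458 hairpin 7 (0.30, blocked adjusted p = 0.0142). CTSC, the dipeptidyl peptidase that activates serine proteases, had a D458 hairpin 7 change of -0.25 (adjusted p = 0.0899, and 0.0175 with the block). The changes of CTSA, a protective protein for NEU1 and GLB1 whose gene overlaps the more abundant PLTP, ran from 0.01 to 0.18. The CTSB call with D425 hairpin 8 was lost without control replicate 1, control replicate 2 or hairpin 8 replicate 1 (highest adjusted p = 0.208). The CTSK call with D425 hairpin 8 was lost without control replicate 3 (highest adjusted p = 0.0954). The CTSD call with D458 hairpin 7 was lost without control replicate 2, control replicate 3 or hairpin 7 replicate 1 (highest adjusted p = 0.121). The CTSD call with D458 hairpin 8 was lost without control replicate 1, control replicate 2, control replicate 3 or hairpin 8 replicate 1 (highest adjusted p = 0.169). In D458, CTSB, CTSH, CTSK and CTSV kept their calls without any single library. In the fit of the line's own libraries, CTSB was not called with D425 hairpin 8 (adjusted p = 0.1) nor CTSD with D458 hairpin 8 (adjusted p = 0.055).

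**Figure D3:**
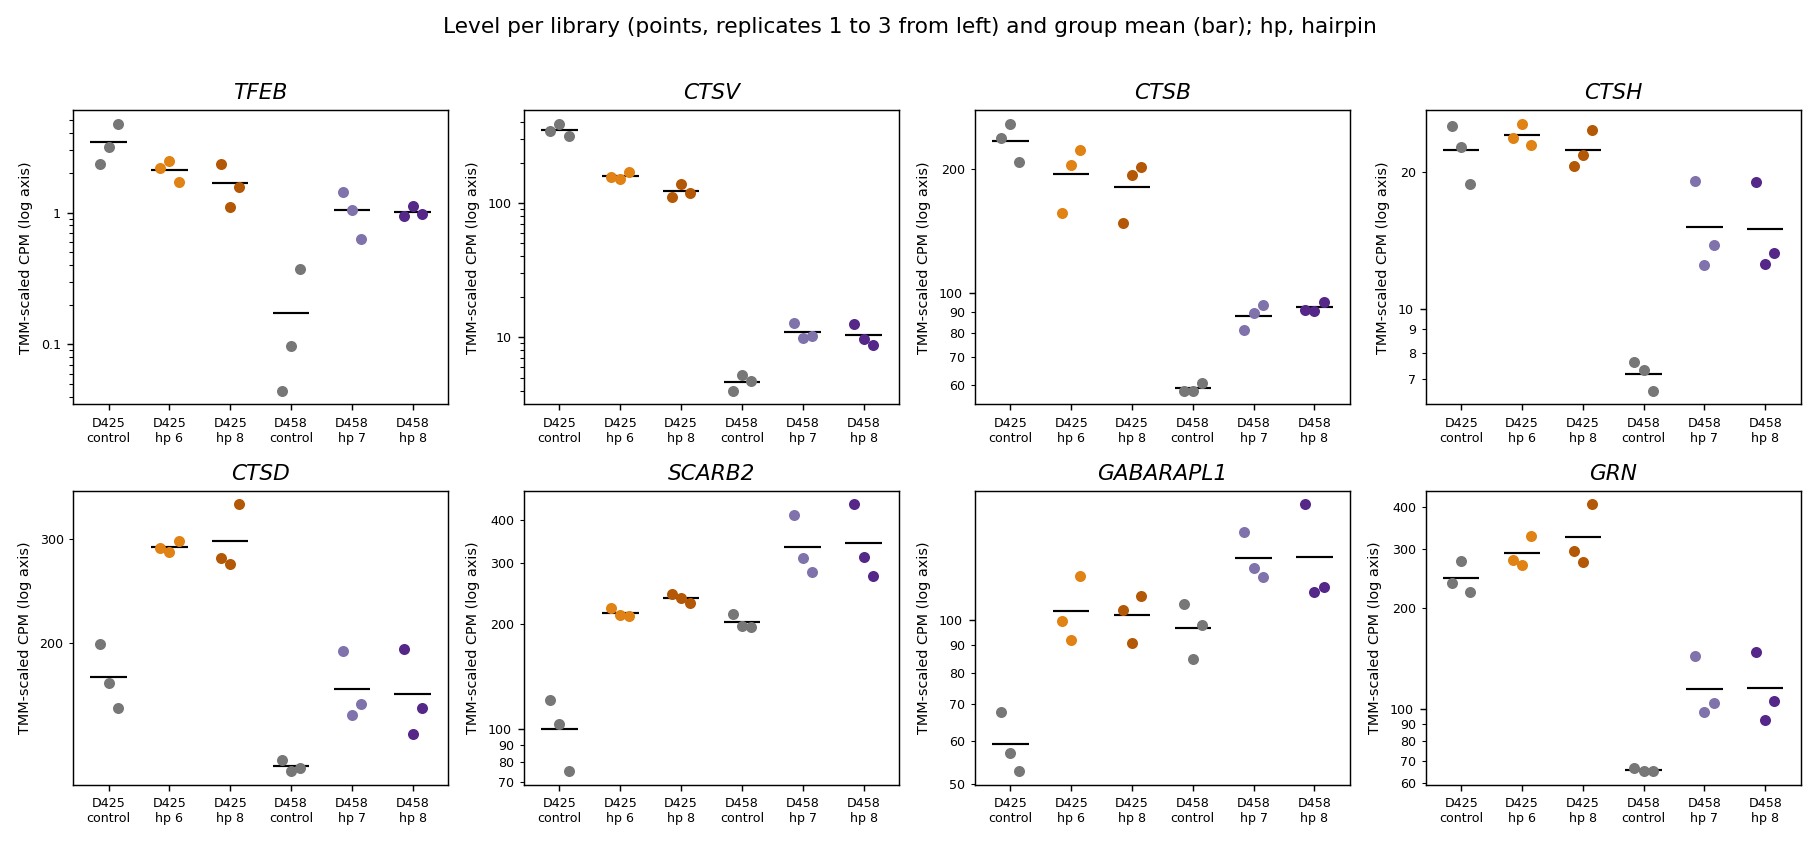
Level of 8 members in each library (y axis, TMM-scaled CPM on a log axis) by group (x axis), with points for replicates 1 to 3 from left to right and a bar for the group mean. TFEB, CTSB, CTSH, CTSV and GRN start far lower in D458 controls than in D425 controls and rise in D458. Replicate 1 is the highest library of both D458 hairpin groups for CTSD, CTSH, CTSV, SCARB2, GABARAPL1 and GRN.

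Among the 9 hydrolases of glycans, lipids and peptides, called members differed by line. LIPA was higher with both D425 hairpins. GLB1 and NEU1 were higher and GLA lower with both D458 hairpins, and TPP1 was higher with hairpin 8 of either line. LIPA, the acid lipase that frees cholesterol and fatty acids from lipoprotein lipids, stood at 18.4, 14.95 and 11.7 CPM in the D425 controls, 25.8, 26.1 and 25.8 under hairpin 6 and 29.4, 26.3 and 34.6 under hairpin 8. All 6 hairpin libraries lay above the controls, and the changes were 0.79 ± 0.18 (adjusted p = 0.0084) with hairpin 6 and 1.01 ± 0.18 (adjusted p = 0.00111) with hairpin 8. In D458 it was 18.7, 19.7 and 19.4 CPM in the controls, 26.2, 21.4 and 18.8 under hairpin 7 and 34.2, 22.9 and 21.03 under hairpin 8, where hairpin 7 replicate 3 lay within the controls and the changes of 0.20 and 0.43 did not pass.

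NEU1, the lysosomal sialidase, was high in replicate 1 of every D458 group. It stood at 68.6, 45.99 and 44.1 CPM in the D458 controls, 99.5, 72.2 and 77.3 under hairpin 7 and 99.7, 72.6 and 80.4 under hairpin 8. Its lowest hairpin libraries lay just above the highest control, with changes of 0.65 ± 0.20 (adjusted p = 0.0303) with hairpin 7 and 0.67 ± 0.20 (adjusted p = 0.0253) with hairpin 8. In D425 it was 73.3, 54.4 and 43.4 CPM in the controls, 91.2, 77.4 and 90.6 under hairpin 6 and 82.9, 76.4 and 101 under hairpin 8, and the change of 0.61 ± 0.20 (adjusted p = 0.0394) with hairpin 8 was called while that of 0.60 ± 0.20 (adjusted p = 0.0553) with hairpin 6 was not (blocked adjusted p = 0.00609). GLB1, the lysosomal β-galactosidase, stood at 33.2, 31.9 and 34.6 CPM in the D458 controls, 54.3, 45.9 and 44.9 under hairpin 7 and 57, 44.3 and 45.3 under hairpin 8. These groups did not overlap, and the changes were 0.54 ± 0.17 (adjusted p = 0.0362) with hairpin 7 and 0.56 ± 0.17 (adjusted p = 0.0307) with hairpin 8. In D425 the GLB1 changes of 0.06 and 0.13 did not pass.

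GLA, the α-galactosidase that is missing in Fabry disease, was lower in D458. It stood at 65.6, 52.3 and 58.7 CPM in the D458 controls, 35.5, 42.2 and 51.7 under hairpin 7 and 32.8, 43.4 and 47.96 under hairpin 8. Replicate 1 was the lowest of each hairpin group and the highest of the controls, and the changes were -0.45 ± 0.15 (adjusted p = 0.0408) with hairpin 7 and -0.51 ± 0.15 (adjusted p = 0.0237) with hairpin 8. In D425 they were 0.20 and -0.03, with no call. GLA overlaps the readthrough gene RPL36A-HNRNPH2, which had few counts. TPP1, a tripeptidyl peptidase, rose with hairpin 8 in D425 (0.51 ± 0.12, adjusted p = 0.00811) and in D458 (0.49 ± 0.13, adjusted p = 0.0117). With hairpin 6 its change was 0.19 (adjusted p = 0.356), and with hairpin 7 it was 0.28 (adjusted p = 0.119, and 0.0447 with the block). PPT1, a palmitoyl thioesterase, was called lower with D458 hairpin 8 at -0.24 ± 0.09 (adjusted p = 0.0489) with overlapping groups, and its hairpin 7 change was -0.23 (adjusted p = 0.0588, blocked 0.0253). PPT1 overlaps CAP1, a gene with more counts, and the strand setting of the counting is not given in the sources used here.

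GAA, GUSB and HEXA were called with no hairpin, and GUSB, β-glucuronidase, had changes of 0.12, 0.09, 0.17 and 0.09. GAA, the acid α-glucosidase, had D458 changes of 0.26 and 0.29 (adjusted p = 0.222 and 0.172), and HEXA, which is lost in Tay-Sachs disease, of 0.43 and 0.41 (adjusted p = 0.0994 and 0.116). With the replicate block, GAA passed with both D458 hairpins (adjusted p = 0.0283 and 0.0153), as did HEXA (adjusted p = 0.00468 and 0.00708). The LIPA call with D425 hairpin 6 was lost without control replicate 3 (highest adjusted p = 0.0596). The NEU1 call with D425 hairpin 8 was lost without control replicate 2, control replicate 3, hairpin 8 replicate 1 or hairpin 8 replicate 3 (highest adjusted p = 0.188). The TPP1 call with D425 hairpin 8 was lost without control replicate 3 (highest adjusted p = 0.0512). The GLA call with D458 hairpin 7 was lost without control replicate 1, control replicate 2, control replicate 3, hairpin 7 replicate 1 or hairpin 7 replicate 2 (highest adjusted p = 0.212). The GLB1 call with D458 hairpin 7 was lost without control replicate 1, control replicate 2, control replicate 3 or hairpin 7 replicate 1 (highest adjusted p = 0.137). The NEU1 call with D458 hairpin 7 was lost without control replicate 2, control replicate 3 or hairpin 7 replicate 1 (highest adjusted p = 0.141). The GLA call with D458 hairpin 8 was lost without control replicate 1, control replicate 3 or hairpin 8 replicate 1 (highest adjusted p = 0.137). The GLB1 call with D458 hairpin 8 was lost without control replicate 1, control replicate 2, control replicate 3 or hairpin 8 replicate 1 (highest adjusted p = 0.137). The NEU1 call with D458 hairpin 8 was lost without control replicate 2, control replicate 3 or hairpin 8 replicate 1 (highest adjusted p = 0.121). The TPP1 call with D458 hairpin 8 was lost without hairpin 8 replicate 1 (highest adjusted p = 0.0652). The PPT1 call with D458 hairpin 8 was lost without control replicate 1, control replicate 3, hairpin 8 replicate 1, hairpin 8 replicate 2 or hairpin 8 replicate 3 (highest adjusted p = 0.264). GLA was not called when the D458 libraries were fitted alone (adjusted p = 0.0796 and 0.0554), nor NEU1 with D425 hairpin 8 when no low-count filter was set (adjusted p = 0.0654). For PPT1 the call was also lost with RLE factors, without the filter and in the line alone (highest adjusted p = 0.12).

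All 3 lumenal cofactors and carriers, NPC2, PSAP and GRN, were higher with both D458 hairpins and called with none in D425. GRN, progranulin, which is cut into granulins in the lysosome, stood at 66.5, 65.3 and 65.04 CPM in the D458 controls, 143, 97.5 and 104 under hairpin 7 and 148, 92.4 and 106 under hairpin 8. The controls lay close together and below every hairpin library, and the changes were 0.81 ± 0.18 (adjusted p = 0.0062) with hairpin 7 and 0.81 ± 0.18 (adjusted p = 0.0059) with hairpin 8. In D425 it was 237, 276 and 222 CPM in the controls, 277, 268 and 326 under hairpin 6 and 295, 274 and 407 under hairpin 8, with changes of 0.25 and 0.41 (blocked adjusted p = 0.0461 for hairpin 8). NPC2, the soluble carrier that hands cholesterol to NPC1, stood at 11.4, 7.48 and 8.05 CPM in the D458 controls, 20.9, 12.4 and 13.8 under hairpin 7 and 23.8, 14.4 and 11.8 under hairpin 8. Its lowest hairpin library was only just above control replicate 1, and the changes were 0.81 ± 0.26 (adjusted p = 0.0338) with hairpin 7 and 0.90 ± 0.25 (adjusted p = 0.0203) with hairpin 8. PSAP, prosaposin, the precursor of the saposins that present sphingolipids to hydrolases, stood at 581, 432 and 455 CPM in the D458 controls, 907, 643 and 688 under hairpin 7 and 839.9, 593 and 642 under hairpin 8. Replicate 1 was the highest library of each D458 group, and the changes were 0.61 ± 0.15 (adjusted p = 0.00863) with hairpin 7 and 0.50 ± 0.15 (adjusted p = 0.0224) with hairpin 8.

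In D425, NPC2 was 35.6 ± 3.65 CPM in the controls, 38.3 ± 4.57 under hairpin 6 and 39.6 ± 8.19 under hairpin 8 (mean ± SD, n = 3), with no call. PSAP there was 1181, 1123 and 963 CPM in the D425 controls, 1269, 1317 and 1349.9 under hairpin 6 and 1058, 1191 and 1026 under hairpin 8. The hairpin 6 libraries lay above the controls by 0.27 (adjusted p = 0.247, blocked 0.00481), and those of hairpin 8 overlapped them (0.0032). The NPC2 call with D458 hairpin 7 was lost without control replicate 2, control replicate 3 or hairpin 7 replicate 1 (highest adjusted p = 0.185). The PSAP call with D458 hairpin 7 was lost without hairpin 7 replicate 1 (highest adjusted p = 0.0563). The NPC2 call with D458 hairpin 8 was lost without control replicate 2, control replicate 3 or hairpin 8 replicate 1 (highest adjusted p = 0.138). The PSAP call with D458 hairpin 8 was lost without control replicate 2, control replicate 3 or hairpin 8 replicate 1 (highest adjusted p = 0.129). GRN kept both D458 calls without any single library. With the D458 libraries fitted alone, NPC2 was not called with either hairpin (highest adjusted p = 0.0734, for hairpin 7, where the fit without a filter lost it too), and PSAP not with hairpin 8 (adjusted p = 0.0638).

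Of the 6 membrane proteins, SCARB2 and MCOLN1 were higher with every hairpin and LAMP1, LAMP2, CD63 and NPC1 were called with none. SCARB2 (LIMP-2), the receptor that carries glucocerebrosidase to the lysosome, stood at 121, 103 and 75.3 CPM in the D425 controls, 223, 213 and 212 under hairpin 6 and 245, 238 and 229.7 under hairpin 8. The fitted levels were 2.17 and 2.38 times control, with log2 changes of 1.11 ± 0.18 (adjusted p = 7.8e-04) with hairpin 6 and 1.25 ± 0.18 (adjusted p = 2.2e-04) with hairpin 8 and no overlap. In D458 it was 214, 197 and 197 CPM in the controls, 412, 310.3 and 283 under hairpin 7 and 444, 313 and 275 under hairpin 8, with replicate 1 far above the other hairpin libraries and changes of 0.73 ± 0.17 (adjusted p = 0.00871) with hairpin 7 and 0.76 ± 0.17 (adjusted p = 0.00655) with hairpin 8. MCOLN1, the lysosomal calcium channel TRPML1, stood at 42.2, 36.3 and 38.2 CPM in the D425 controls, 60.1, 57.5 and 54.1 under hairpin 6 and 60.3, 54.4 and 58.2 under hairpin 8. Its replicates were tight and did not overlap, and the changes were 0.56 ± 0.08 (adjusted p = 5.1e-04) with hairpin 6 and 0.57 ± 0.08 (adjusted p = 2.5e-04) with hairpin 8. In D458 it was 36.6, 43.01 and 40.8 CPM in the controls, 47.99, 44.96 and 50.1 under hairpin 7 and 48.8, 46.2 and 49.96 under hairpin 8, which separates from the controls by a small margin, with changes of 0.25 ± 0.08 (adjusted p = 0.0404) with hairpin 7 and 0.27 ± 0.08 (adjusted p = 0.0287) with hairpin 8.

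LAMP1 and LAMP2, the main glycoproteins of the lysosomal membrane, had D425 changes of 0.30 and 0.23 for LAMP1 (adjusted p = 0.0989 and 0.174) and of 0.14 and 0.26 for LAMP2 (adjusted p = 0.357 and 0.0597). With the replicate block, both D425 hairpins gave a call of LAMP1 (adjusted p = 0.0016 and 0.00694) and hairpin 8 a call of LAMP2 (adjusted p = 0.0207). In D458 the changes were -0.08 and -0.09 for LAMP1 and 0.09 and 0.12 for LAMP2. CD63, a tetraspanin, and NPC1, the membrane partner of NPC2, had changes between -0.14 and 0.18 in the 4 comparisons. The SCARB2 call with D458 hairpin 7 was lost without hairpin 7 replicate 1 (highest adjusted p = 0.059). The MCOLN1 call with D458 hairpin 7 was lost without control replicate 1, control replicate 3, hairpin 7 replicate 1 or hairpin 7 replicate 3 (highest adjusted p = 0.127). The MCOLN1 call with D458 hairpin 8 was lost without control replicate 1, control replicate 3, hairpin 8 replicate 1 or hairpin 8 replicate 3 (highest adjusted p = 0.1). In D425 both genes kept their calls without any single library. The D458 calls of MCOLN1 were lost in the fit of that line alone, and with hairpin 7 also without a low-count filter (highest adjusted p = 0.0716 with hairpin 7 and 0.0588 with hairpin 8).

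The 3 proton pump members, ATP6V0D1 and ATP6V1H of the V-ATPase and its accessory protein ATP6AP1, were called with no hairpin, and their changes ran from -0.10 to 0.29. ATP6AP1 had D458 changes of 0.27 and 0.29 (adjusted p = 0.0846 and 0.0615), which passed with the replicate block (adjusted p = 0.0079 and 0.00443). ATP6V0D1 passed with the block for hairpin 8 of D425 (0.24, blocked adjusted p = 0.0193) and of D458 (0.23, blocked adjusted p = 0.0221).

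On the autophagy side, NBR1, 1 of the 2 cargo receptors in the set, was higher with both D458 hairpins. It stood at 62.7, 76.8 and 81.4 CPM in the D458 controls, 125, 95.5 and 96.7 under hairpin 7 and 133, 99.2 and 95.97 under hairpin 8. The hairpin libraries lay above all controls, with replicate 1 the highest in the hairpin groups and the lowest among the controls, and the changes were 0.52 ± 0.15 (adjusted p = 0.0198) with hairpin 7 and 0.57 ± 0.15 (adjusted p = 0.012) with hairpin 8. In D425 they were 0.22 and 0.32, with no call. SQSTM1 (p62), the receptor for ubiquitinated cargo, had changes of 0.32 and 0.28 in D425 (adjusted p = 0.184 and 0.208, blocked 0.0299 and 0.0436) and of -0.05 and -0.08 in D458. SQSTM1 overlaps MGAT4B, which had a similar number of counts.

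Of the 4 tested ATG8 genes, whose products are joined to lipid on the autophagic membrane, GABARAPL1 was higher with every hairpin, MAP1LC3B and GABARAP with both D458 hairpins, and GABARAPL2 with none. GABARAPL1 stood at 67.6, 56.9 and 52.7 CPM in the D425 controls, 99.4, 91.95 and 120.2 under hairpin 6 and 104, 90.8 and 110.5 under hairpin 8. The hairpin libraries lay clear of the controls, and the changes were 0.81 ± 0.15 (adjusted p = 0.00193) with hairpin 6 and 0.79 ± 0.15 (adjusted p = 0.00161) with hairpin 8. In D458 it was 107, 84.9 and 97.9 CPM in the controls, 145, 124 and 119.8 under hairpin 7 and 163, 113 and 115 under hairpin 8, where the lowest hairpin library was only just above control replicate 1, and the changes were 0.43 ± 0.15 (adjusted p = 0.048) with hairpin 7 and 0.43 ± 0.15 (adjusted p = 0.0445) with hairpin 8. MAP1LC3B (LC3B), the usual marker of autophagosomes, stood at 72, 67.4 and 62.7 CPM in the D458 controls, 94.8, 87.6 and 79.4 under hairpin 7 and 98.8, 83.3 and 83.01 under hairpin 8. These did not overlap, with changes of 0.37 ± 0.08 (adjusted p = 0.00548) with hairpin 7 and 0.39 ± 0.08 (adjusted p = 0.00397) with hairpin 8. GABARAP stood at 92.1, 93.4 and 92.03 CPM in the D458 controls, 132, 101 and 108 under hairpin 7 and 130.4, 102 and 107 under hairpin 8. Its controls were nearly equal and all hairpin libraries were higher, by 0.30 ± 0.10 (adjusted p = 0.0438) with hairpin 7 and 0.29 ± 0.10 (adjusted p = 0.0479) with hairpin 8.

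In D425, the MAP1LC3B changes were 0.04 and 0.12 and those of GABARAP 0.12 and 0.23 (blocked adjusted p = 0.0324 for hairpin 8). GABARAPL2 had changes between -0.05 and 0.02 in the 4 comparisons. MAP1LC3B and GABARAPL1 have near-identical copies in the genome (MAP1LC3B2 and GABARAPL3), and GABARAP overlaps PHF23, so part of their reads could be assigned elsewhere. The NBR1 call with D458 hairpin 7 was lost without control replicate 1 or hairpin 7 replicate 1 (highest adjusted p = 0.114). The GABARAP call with D458 hairpin 7 was lost without control replicate 1, control replicate 2, control replicate 3 or hairpin 7 replicate 1 (highest adjusted p = 0.234). The GABARAPL1 call with D458 hairpin 7 was lost without control replicate 2, control replicate 3, hairpin 7 replicate 1 or hairpin 7 replicate 2 (highest adjusted p = 0.179). The NBR1 call with D458 hairpin 8 was lost without control replicate 1 or hairpin 8 replicate 1 (highest adjusted p = 0.0739). The GABARAP call with D458 hairpin 8 was lost without control replicate 1, control replicate 2, control replicate 3 or hairpin 8 replicate 1 (highest adjusted p = 0.251). The GABARAPL1 call with D458 hairpin 8 was lost without control replicate 2, control replicate 3 or hairpin 8 replicate 1 (highest adjusted p = 0.249). MAP1LC3B in D458 and GABARAPL1 in D425 kept their calls without any single library. With the D458 libraries fitted alone, GABARAP and GABARAPL1 were not called (highest adjusted p = 0.0968 and 0.0675 with hairpin 7, where the fit without a filter lost them too, and 0.107 and 0.066 with hairpin 8).

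Of the 8 genes that start and extend the autophagic membrane, ULK1 was higher and ATG5 lower with both D458 hairpins, UVRAG was higher with both D425 hairpins, and 5 were called with no hairpin. ULK1, the initiating kinase, stood at 47.1, 57.4 and 59.6 CPM in the D458 controls, 76.9, 71.6 and 71.6 under hairpin 7 and 72.3, 66.5 and 68.99 under hairpin 8. All hairpin libraries exceeded the controls, and the changes were 0.42 ± 0.10 (adjusted p = 0.00713) with hairpin 7 and 0.34 ± 0.10 (adjusted p = 0.0212) with hairpin 8. ATG5, part of the complex that attaches lipid to ATG8 proteins, stood at 41.3, 35.2 and 39.9 CPM in the D458 controls, 26.9, 29.4 and 28.6 under hairpin 7 and 27.7, 30.9 and 28.9 under hairpin 8. The groups were separate, with changes of -0.46 ± 0.10 (adjusted p = 0.00444) with hairpin 7 and -0.41 ± 0.10 (adjusted p = 0.00765) with hairpin 8. In D425, the ULK1 changes were 0.08 and 0.08 and those of ATG5 0.04 and 0.13, none of which passed. UVRAG, which binds the Beclin 1 lipid kinase complex and the fusion machinery, stood at 37.3, 46.01 and 46.9 CPM in the D425 controls, 51.6, 57.1 and 65.8 under hairpin 6 and 56.02, 57.7 and 68.6 under hairpin 8. Each hairpin library was above the highest control, and the changes were 0.42 ± 0.12 (adjusted p = 0.0279) with hairpin 6 and 0.48 ± 0.12 (adjusted p = 0.00973) with hairpin 8. In D458 the UVRAG changes were -0.19 and -0.16, with no call.

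BECN1, WIPI1, ATG7, ATG16L1 and ULK2 were called with no hairpin. ULK2, a relative of ULK1, was near the count floor in D425, where the libraries of a group summed to 26 counts in the controls, 12 under hairpin 6 and 9 under hairpin 8, or 0.488 (95% exact counting interval 0.224 to 1.00) and 0.342 (0.141 to 0.752) times control. The fitted changes were -1.003 ± 0.54 (adjusted p = 0.243) with hairpin 6 and -1.51 ± 0.57 (adjusted p = 0.0662) with hairpin 8, and hairpin 8 passed with the replicate block (adjusted p = 0.015). In D458 its changes were 0.46 and 0.32 (blocked adjusted p = 0.0258 for hairpin 7). WIPI1, which binds phosphoinositide on the growing membrane, had a D458 hairpin 8 change of 0.71 ± 0.28 (adjusted p = 0.0791), which passed with the block (adjusted p = 0.00217). BECN1, ATG7 and ATG16L1 had changes between -0.25 and 0.10. ATG7 overlaps VGLL4 and WIPI1 overlaps PRKAR1A, both with many more counts. The UVRAG call with D425 hairpin 6 was lost without control replicate 1, control replicate 2, control replicate 3, hairpin 6 replicate 2 or hairpin 6 replicate 3 (highest adjusted p = 0.143). The ULK1 call with D458 hairpin 8 was lost without control replicate 1 or hairpin 8 replicate 1 (highest adjusted p = 0.0764). ATG5 kept its D458 calls without any single library, ULK1 did with hairpin 7, and UVRAG did with D425 hairpin 8 (highest adjusted p = 0.0498).

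The hairpins of a line were also compared with each other. In D458 hairpin 8 left 28.9% of the control EYA2 level and hairpin 7 left 68.5%. No member was called between hairpins 8 and 6 in D425 or between hairpins 8 and 7 in D458, and no gene of the 14850 was (0% higher and 0% lower in either line) by edgeR's quasi-likelihood test. EYA2 itself thus went uncalled in D458, though its libraries did not overlap, at 18.2 to 23.5 CPM under hairpin 8 and 45.1 to 51.9 under hairpin 7. The absence of calls therefore does not show that the hairpins act alike. At an unadjusted p under 0.05 there were 519 genes and 2 members (CTSV and TPP1) in D425 and 274 genes and 0 members in D458. DESeq2 called 6 and 4 genes and no member, and the replicate block 0 and 1 genes and no member. In D458 the members' differences, hairpin 8 minus hairpin 7, ran from -0.13 ± 0.26 for ULK2 to 0.32 ± 0.28 for WIPI1 on the log2 scale, with a median of 0.02, and in D425, hairpin 8 minus hairpin 6, from -0.51 ± 0.65 for ULK2 to 0.37 ± 0.28 for CTSK, with a median of 0.05. Differences of the size of these errors could not be told from 0 with 3 libraries a group.

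The response to hairpin 8, the only one used in both lines, was compared between them with a test of the difference itself. For 6 of the 46 members the effect in D458 differed from that in D425, 4 towards higher in D458 and 2 towards lower. These are 8.7% and 4.35% of the members, where 6.19% and 5.65% of all genes differed in those directions, so as a group the members were near the background. TFEB had the largest difference (3.52 ± 0.68, adjusted p = 0.0041), with log2 changes of -1.03 in D425 and 2.48 in D458. CTSV followed (2.67 ± 0.20, adjusted p = 3.4e-06), which fell by 1.51 in D425 and rose by 1.16 in D458. CTSB differed by 1.02 ± 0.18 (adjusted p = 0.00211), lower in D425 and higher in D458, and CTSH by 1.05 ± 0.24 (adjusted p = 0.0117), with the call in D458 alone. UVRAG (-0.64 ± 0.17, adjusted p = 0.024) and ATG5 (-0.54 ± 0.14, adjusted p = 0.0191) went the other way, the former called higher in D425 and the latter lower in D458. TFEB, CTSV, CTSB and CTSH kept this call without any of the 12 libraries of the comparison. The UVRAG call for this difference was lost without D425 hairpin 8 replicate 3, D458 control replicate 1 or D458 hairpin 8 replicate 1 (highest adjusted p = 0.0514). The ATG5 call for this difference was lost without D425 control replicate 2, D425 hairpin 8 replicate 1, D458 control replicate 1 or D458 control replicate 3 (highest adjusted p = 0.0572).

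With the replicate block 16 members differed between the lines, 10 towards higher and 6 towards lower in D458, where 13.5% and 13% of all genes did. The 10 added were GAA, NPC2, PSAP, MAP1LC3B, ULK2 and WIPI1 towards higher and PPT1, LAMP1, SCARB2 and MCOLN1 towards lower, with blocked adjusted p from 0.00115 for PSAP to 0.0404 for MCOLN1. Their adjusted p without the block ran from 0.0657 for ULK2 to 0.224 for LAMP1. Without replicate 1 of any group, 12 members differed, 6 in each direction, where 7.44% of all genes differed towards higher and 7.58% towards lower. SCARB2 and GABARAPL1, higher in all 4 comparisons, had hairpin 8 changes of 1.25 in D425 and 0.76 in D458 for SCARB2 and of 0.79 and 0.43 for GABARAPL1, and the differences of -0.49 and -0.35 did not pass (adjusted p = 0.208 and 0.287).

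**Figure D4:**
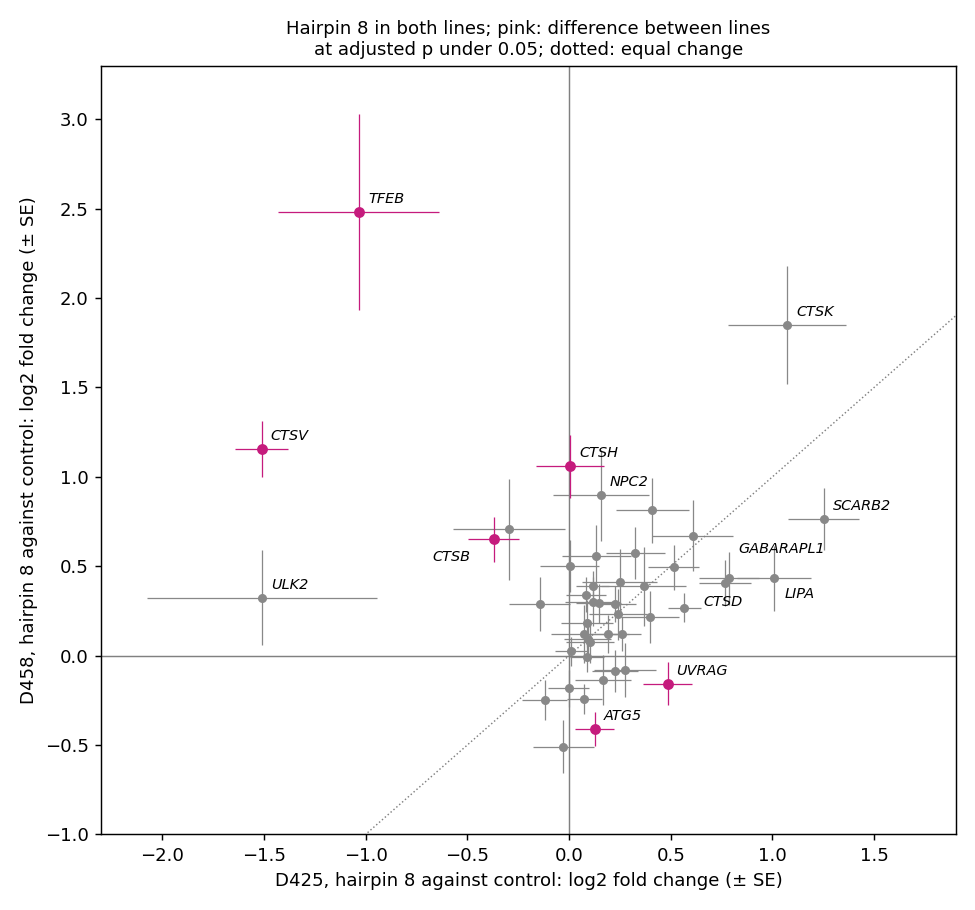
Log2 fold change with hairpin 8 in D425 (x axis) and in D458 (y axis), each ± standard error, 1 point per tested member, with pink points where the difference between lines had an adjusted p under 0.05 and a dotted line at equal change. TFEB and CTSV lie in the upper left, at -1.03 and 2.48 and at -1.51 and 1.16, while CTSK and SCARB2 lie in the upper right.

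The control libraries of the lines were compared to see from what level each gene started. The members were lower in D458 more often than higher: 26 of 46 were lower (56.5%) and 8 higher (17.4%), where 31.4% and 31.4% of all genes were, with a median log2 difference of -0.47 beside 0.01 over all genes. All 8 tested cathepsins were lower in D458 controls, from CTSV (-6.22 ± 0.17, adjusted p = 6.2e-14), CTSB (-1.99) and CTSH (-1.63) to CTSC (-0.25 ± 0.10, adjusted p = 0.0427). The MiT/TFE factors were lower too, TFEB (-4.23 ± 0.52, adjusted p = 2.3e-06), MITF (-0.79) and TFE3 (-0.49), as were the cofactors NPC2 (-1.99), GRN (-1.9) and PSAP (-1.15). Of the hydrolases, TPP1 (-1.3), GLB1 (-1.2), HEXA (-0.80) and PPT1 (-0.25) were lower and GLA (0.58) was higher. Higher in D458 were also the membrane proteins SCARB2 (1.02) and LAMP2 (0.78), the ATG8 genes GABARAPL1 (0.71) and GABARAPL2 (0.44), and ULK2, ATG5 and UVRAG (5.06, 0.50 and 0.32).

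ULK2 had the largest difference in favour of D458, at 8.17, 10.02 and 12.6 CPM in its controls beside 0.329, 0.298 and 0.286 in those of D425. The other members lower in D458 controls were LAMP1 (-0.70), NPC1 (-0.81), CD63 (-0.47), NBR1 (-0.70), SQSTM1 (-0.36), BECN1 (-0.63), MAP1LC3B (-0.62) and ATP6V0D1 (-0.46). Some of these differences were shared with the tested genes around them: the 50 nearest had a median difference of 1.2 for GLA, 0.73 for LAMP2, 0.70 for ATG5, -0.72 for BECN1 and -0.48 for CTSD, against 0.58, 0.78, 0.50, -0.63 and -0.50 for the genes themselves. NEU1, GAA, GUSB, LIPA, MCOLN1, GABARAP, ULK1, WIPI1, ATG7, ATG16L1, ATP6V1H and ATP6AP1 were not called. Of the 34 calls 28 held without any single library, and those of 6 members did not. The CTSC call between the controls was lost without D425 control replicate 1, D425 control replicate 2, D425 control replicate 3, D458 control replicate 1 or D458 control replicate 3 (highest adjusted p = 0.108). The CTSK call between the controls was lost without D425 control replicate 1, D425 control replicate 2 or D458 control replicate 1 (highest adjusted p = 0.134). The PPT1 call between the controls was lost without D425 control replicate 1 or D458 control replicate 2 (highest adjusted p = 0.0853). The CD63 call between the controls was lost without D425 control replicate 1, D458 control replicate 2 or D458 control replicate 3 (highest adjusted p = 0.0806). The SQSTM1 call between the controls was lost without D425 control replicate 1, D425 control replicate 2, D425 control replicate 3, D458 control replicate 2 or D458 control replicate 3 (highest adjusted p = 0.156). The UVRAG call between the controls was lost without D425 control replicate 1, D458 control replicate 1, D458 control replicate 2 or D458 control replicate 3 (highest adjusted p = 0.142). DESeq2 did not call CTSK either (adjusted p = 0.0616). The D458 controls are the same libraries against which the D458 hairpins were read, so these differences and the D458 changes are not independent.

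Other genes of the same pathways, taken from lists by function, are given in the order D425 hairpins 6 and 8, then D458 hairpins 7 and 8. In that order 7.31%, 11.6%, 11.5% and 12.1% of all genes were higher and 6.84%, 10.1%, 11.1% and 11.1% lower. No list was tested against these shares, and genes are named because they were called. Of 36 further lysosomal hydrolases and activators, 4, 7, 8 and 11 were higher and 0, 0, 0 and 0 lower, with median changes of 0.21, 0.25, 0.24 and 0.25. ASAH1, acid ceramidase, was higher with both D425 hairpins (0.75 and 0.92). In D458, ARSA, arylsulfatase A (1.07 and 1.2), SMPD1, acid sphingomyelinase (2.04 and 2.03), and GM2A, the GM2 activator (0.95 and 1.17), were among 7 genes called with both. The SMPD1 changes had standard errors of 0.44, and its level is not given here. ACP5, an acid phosphatase of osteoclasts, had 1 count over the D458 controls and 40 and 44 with hairpins 7 and 8, 27 and 25 of them in replicate 1, a ratio of 39.7 (95% exact counting interval 6.72 to 1605) and 40.3 (6.86 to 1626).

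Of 19 other V-ATPase subunits tested, 2, 3, 3 and 4 were higher and 3, 3, 3 and 1 lower. The shares of all genes were 7.31%, 11.6%, 11.5% and 12.1% higher and 6.84%, 10.1%, 11.1% and 11.1% lower. ATP6V1F (0.30 and 0.41 in D425, 0.49 and 0.51 in D458) and the neuronal subunit ATP6V1G2 (1.32 and 1.5, 1.07 and 1.35) were higher with every hairpin. ATP6V1G1 was lower in D425 (-0.40 and -0.28) and higher in D458 (0.31 and 0.33), ATP6V0A2 was lower in D425 (-0.49 and -0.35) and ATP6V1E1 lower in D458 (-0.40 and -0.46). Of 25 other lysosomal membrane proteins, 0, 3, 2 and 3 were higher and 0, 0, 4 and 2 lower. In D458 the potassium channel TMEM175 was higher (0.80 and 0.96) and CLN3 (-0.38 and -0.35) and MFSD12 (-0.30 and -0.27) were lower. Of 31 genes for sorting and fusion, 2, 5, 0 and 0 were higher and 2, 2, 3 and 2 lower. GNPTAB, which makes the mannose 6-phosphate tag of lysosomal enzymes, was higher in D425 (0.73 and 0.68), with CLN8 (0.39 and 0.40), and GGA3 (-0.49 and -0.44) and RAB7A (-0.26 and -0.24) were lower. VPS35 of the retromer (-0.31 and -0.32) and GGA2 (-0.35 and -0.43) were lower in D458.

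Of 29 genes of mTORC1 and nutrient sensing, 1, 4, 4 and 4 were higher and 0, 1, 4 and 4 lower. Over all genes the shares were 7.31%, 11.6%, 11.5% and 12.1% higher and 6.84%, 10.1%, 11.1% and 11.1% lower. DEPTOR, an mTOR inhibitor, was higher with every hairpin (0.72 and 0.86 in D425, 1.22 and 1.25 in D458), and in D458 LAMTOR2 was higher (0.52 and 0.57) and DEPDC5 (-0.42 and -0.41) and RPTOR (-0.30 and -0.34) lower. Of 30 other core autophagy genes, 1, 2, 1 and 2 were higher and 4, 5, 3 and 6 lower. KIAA0226 (Rubicon), an inhibitor of autophagosome maturation, was lower with every hairpin (-0.69 and -0.53, -0.65 and -0.53), as was PIK3R4, a subunit of the class III lipid kinase (-0.67 and -0.72, -0.30 and -0.31). WDR45B was lower (-0.35 and -0.35) and TECPR1 higher (0.40 and 0.39) in D425, and ATG3 lower (-0.35 and -0.40) and ATG9A higher (0.48 and 0.37) in D458. Of 17 other selective autophagy receptors and regulators, 1, 4, 5 and 7 were higher and 1, 1, 1 and 1 lower. OPTN, optineurin, had changes of 3.33 ± 0.48 (adjusted p = 4.1e-04) and 3.46 ± 0.48 (adjusted p = 2.9e-04) with D458 hairpins 7 and 8. Its level is not given here, so how near the count floor it started cannot be read. PINK1, the kinase of mitophagy (0.84 and 0.91), and CALCOCO2 (0.62 and 0.60) were higher in D458, and the mitophagy receptor BNIP3 was lower (-0.74 and -0.56). In D425, TAX1BP1 was higher (0.32 and 0.43) and TEX264 lower (-0.36 and -0.32).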

How the data were processed

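Polyadenylated RNA of 18 libraries was sequenced, and the deposited table holds raw read counts for 25369 genes. Per the submitters' processing notes, reads were handled with TopHat2 and Bowtie2, HTSeq, SAMtools, Picard, bcl2fastq and FastQC on the build GRCh37 (hg19). How strand and reads with several matches were treated in counting is not given in the sources used here. No pair of columns was identical. Counts were fitted in R 4.3.3 with edgeR 4.0.16 (quasi-likelihood test, TMM factors, edgeR's low-count filter at a minimum count of 10, a coefficient for each group and 12 residual degrees of freedom), and p-values were adjusted by Benjamini-Hochberg over 14850 genes. Totals of 21260369 to 31552051 counts set the counting precision, which is poor for TFEB, CTSK and ULK2. Levels are TMM-scaled CPM, and standard errors are the log2 change divided by the root of the F statistic. The script was tested on simulated data. Alternatives were DESeq2 1.42.0, RLE factors, no low-count filter, the libraries of a line alone, the replicate number as a block, and leaving out each library or each number.

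The sample descriptions give all libraries of 1 replicate number the same prefix, without saying what it marks, and within a line the same date. For the same number, their deviations from the group means correlated at 0.08 to 0.61 (mean 0.30) in D425 and 0.13 to 0.70 (mean 0.35) in D458. For different numbers the means were -0.14 and -0.17. Deviations from a group mean sum to 0, so positive values for the same number bring negative ones for different numbers. The negative means are therefore no separate evidence beside the positive ones. The numbers were taken as possible pairs and fitted as a block among the alternatives. The main calls come from the fit without the block, which ignores such pairs. The replicates are described as independent biological replicates, and nothing says how far back the cultures separate. The members and all gene and marker lists were chosen with earlier results of these data known. Values in every library are given for TFEB, TFE3 and MITF, for members called in 1 direction with both hairpins of a line and for members that differed between lines or hairpins. From each other pathway list up to 4 genes called with both hairpins of a line are named, smallest adjusted p first, and 1 gene that this rule names is not reported here. Marker lists covered Group 3 medulloblastoma, macrophages and microglia, astrocytes, oligodendrocytes, fibroblasts and pericytes, and endothelium. RefSeq windows carry GRCh38.p14 coordinates and were joined to the counts by gene symbol only.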

Additional observations from a re-analysis of the deposited data

Results flagged for a closer look

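The effect of hairpin 8 differed between D458 and D425 for 6 members by a test of the difference itself (edgeR's quasi-likelihood test, adjusted over all genes). Towards higher in D458 were 8.7% of the tested members and 6.19% of all genes, and towards lower 4.35% and 5.65%, so the number is near the background. The log2 effect in D458 minus that in D425 was 3.52 for TFEB, 2.67 for CTSV, 1.05 for CTSH and 1.02 for CTSB, all towards higher in D458. It was -0.64 for UVRAG and -0.54 for ATG5, towards lower in D458. The D458 side of the TFEB value rests on 12 control counts in 3 libraries, and the call of UVRAG was lost without 3 and that of ATG5 without 4 of the 12 libraries when left out singly.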

How the results depend on the processing

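No called member's log2 change turned its sign in any alternative that was run, and of the values under those alternatives 1097 kept their call and 265 lost it. With the replicate block, the members called became 13 with D425 hairpin 6, 20 with D425 hairpin 8 and 16 for the difference between lines, and the counts of the other comparisons stayed within 1.5 times. In the fit of the line's own libraries, 14 were called with D458 hairpin 8. Leaving out single libraries gave 5 to 8 calls with D425 hairpin 6, 8 to 12 with D425 hairpin 8, 9 to 20 with D458 hairpin 7, 9 to 22 with D458 hairpin 8, 4 to 7 for the difference between lines and 30 to 33 between the controls. In the same fits the calls over all genes ran from 926 to 2601, 1584 to 3440, 1283 to 2910, 1458 to 3311, 946 to 2322 and 8579 to 8974. Without replicate 1, 2 or 3 of every group the calls were 13, 1 and 2 with D425 hairpin 6, 15, 6 and 3 with D425 hairpin 8, 17, 4 and 6 with D458 hairpin 7, 15, 4 and 7 with D458 hairpin 8, and 12, 1 and 3 for the difference. Over all genes they were then 3439, 116 and 135, 4146, 878 and 513, 2754, 686 and 663, 2235, 818 and 918, and 2221, 75 and 102, so they moved with the members. The fits without a replicate number hold fewer libraries than the full fit but equally many as each other. In each comparison listed, calls were more numerous without replicate 1 than without replicate 2 or 3. Replicates 2 and 3 share a date that replicate 1 does not, and the cause was not tested. DESeq2, RLE factors and no low-count filter kept every count within 1.5 times, and another scaling moved the median of all genes by less than 0.1 on the log2 scale.

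With 3 libraries a group, changes of low members such as TFEB in D458 and ULK2 in D425 carry wide counting intervals, and a member that was not called is not shown to be unchanged. Hairpins 7 and 6 were each used in 1 line, so a difference between hairpins and a difference between lines cannot be told apart for them. RNA levels of these genes give no measure of lysosomal content or of autophagic flux.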
